A study of Rattus norvegicus with 6 samples.

Results

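The macrophage and antigen presentation markers described here are the genes Cd68, Cd14, Cd163, Cd74 and Aif1. Every probe set of the array that the platform annotation gives to exactly 1 of these symbols was taken as a member. This gave 5 probe sets of 4 genes, out of 15923 on the array: 1 each for Cd74, Cd14 and Cd68, and 2 for Aif1. Under this rule Cd163 had no probe set, so it has no value here. Probe sets that were dim on average were not tested, and all 5 members were bright enough to be among the 9519 tested.

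The study used 3 male Wistar rats, 8 weeks old, whose peroneal nerve, which supplies the tibialis anterior muscle of the shin, was cut and its end joined to the biceps femoris. The nerve stumps were rejoined after 4 weeks, and survival was 8 weeks, a span whose starting point the labels leave unstated. RNA of the tibialis anterior of the operated (ipsilateral) and of the other (contralateral) leg was measured on 6 arrays, 1 for each muscle, so each group had 3 libraries, from the animals numbered 4, 5 and 6. The contralateral muscle came from the same operated animals, which had been under ketamine and xylazine anaesthesia, so no muscle of an unoperated animal was compared here.

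Macrophages are phagocytes that patrol most tissues, and in skeletal muscle they lie in the connective tissue between the fibres. After nerve injury they clear the debris of degenerating axons, and in damaged muscle they remove dead fibres and release growth signals. Antigen presenting cells, macrophages among them, cut up proteins taken in from outside and show the peptides to helper T cells on major histocompatibility complex (MHC) class II molecules, which in the rat are encoded in the RT1 region.

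The members cover several steps of this work. CD74, the invariant chain, fills the groove of newly made MHC class II molecules until they reach the compartment where peptides are loaded, and at the cell surface it binds the cytokine MIF. CD14 is the surface protein that hands bacterial lipopolysaccharide to the receptor TLR4. CD68 is a heavily glycosylated protein of the lysosomes and endosomes of phagocytes, the antigen of the rat macrophage antibody ED1. AIF1, also called Iba1, is a calcium-binding protein that bundles actin in the membrane ruffles of macrophages and microglia. CD163 is the scavenger receptor for haptoglobin-bound haemoglobin.

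The promoter windows of Cd68, Cd14 and Cd74 are shown because these were the members with lower ipsilateral values. Each runs from 250 bases before to 50 bases after a start site in RefSeq on the rat build GRCr8, 5′ to 3′ on the strand of the gene. For Cd68 that site is the outer end of the gene record. For Cd14 and Cd74 it lies 251 and 135 bases inside the record, so the whole Cd14 window and part of the Cd74 window fall within the annotated gene. Positions below are counted from the site of the window. Capitals mark matches on either strand to a pair of motifs. The PU box, the core recognised by the myeloid factor PU.1, reads GAGGAA on one strand and therefore TTCCTC on the other. The CCAAT box, which NF-Y binds in MHC class II genes among many others, reads ATTGG on the opposite strand.
Cd68, chr10:54882392-54882691, minus strand: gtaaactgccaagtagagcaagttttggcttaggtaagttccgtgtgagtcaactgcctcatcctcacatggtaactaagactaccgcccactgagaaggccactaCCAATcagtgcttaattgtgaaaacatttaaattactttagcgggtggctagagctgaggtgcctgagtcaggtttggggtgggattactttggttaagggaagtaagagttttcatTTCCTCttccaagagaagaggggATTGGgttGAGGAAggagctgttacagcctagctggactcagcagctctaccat
Cd14, chr18:28611109-28611408, minus strand: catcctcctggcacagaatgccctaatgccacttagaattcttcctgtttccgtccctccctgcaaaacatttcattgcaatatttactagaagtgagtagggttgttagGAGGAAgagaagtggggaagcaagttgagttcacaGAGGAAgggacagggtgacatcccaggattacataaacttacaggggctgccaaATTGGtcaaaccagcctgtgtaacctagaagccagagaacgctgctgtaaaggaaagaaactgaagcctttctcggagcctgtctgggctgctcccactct
Cd74, chr18:56526956-56527255, plus strand: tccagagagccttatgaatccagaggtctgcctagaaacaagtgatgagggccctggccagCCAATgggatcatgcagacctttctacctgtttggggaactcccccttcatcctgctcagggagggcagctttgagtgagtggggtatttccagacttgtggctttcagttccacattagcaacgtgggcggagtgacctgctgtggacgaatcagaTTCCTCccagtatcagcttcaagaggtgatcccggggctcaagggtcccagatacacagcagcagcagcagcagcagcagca
Cd68 had 2 matches to the PU box, 1 from base 27 before the site and 1 from base 5 when the site is counted as base 1, and Cd14 had 2, from bases 140 and 105 before the site. Cd74 had 1, from base 32 before the site. At least 1 match was present in 27.6% and at least 2 in 4.83% of all 33469 rat promoter windows of this length. The CCAAT box was matched 2 times in Cd68, 1 time in Cd14 and 1 time in Cd74. At least 1 match was present in 37.5% and at least 2 in 11.2% of all windows. The window of Cd163, not shown, had 0 matches to the PU box and 1 to the CCAAT box. No marked match overlapped another, and the matches describe these letters only.

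Values are intensities on a linear scale, as the authors deposited them. Differences are log2 of ipsilateral over contralateral intensity after adding a pseudocount of 15.8 to every value, a scale that understates the differences of dim genes. Their standard errors (SE) come from limma's paired fit over the 3 animals and all 9519 tested probe sets. Group values are means ± SD of 3 libraries. In tissue RNA, fewer macrophages and less of a transcript in each macrophage cannot be told apart.

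Median intensities of the libraries lay between 60.2 and 66.6. Several libraries stood apart on control measures. For actin, the 3′ probe set divided by the middle one, a sign of RNA length, gave 2.77 for contralateral 4 and 2.87 for ipsilateral 6, whereas the other 4 libraries ranged from 1.36 to 1.68. The same ratio for Gapdh did not set these libraries apart. It was 1.15 in contralateral 4 and 1.19 in ipsilateral 6, within the range of 1.02 to 1.21 of the other 4. The spiked-in cre control reached 1116.9 and 1476.2 on the arrays of animal 4, against 2480.8 to 3605.1 on the others. The sperm gene Prm1 was at 617.3 in ipsilateral 4 and at 248.2 or less elsewhere. Ckm, Acta1 and Mb, the muscle creatine kinase, skeletal actin and myoglobin, were at 4683.8 or above in every library, so the defining genes of the labelled tissue were present.

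Cd74, Cd14 and Cd68 had lower mean values in the ipsilateral muscle, by 0.40 (SE 0.16), 0.52 (SE 0.16) and 0.38 (SE 0.16) on the log2 scale (n = 3 pairs), and Aif1 showed no difference in 1 direction. None of these differences passed the threshold. In limma's paired fit, 0 of the 5 member probe sets passed an adjusted p (Benjamini-Hochberg) of 0.05, and across all tested probe sets the count was also 0 (0.0%). At an unadjusted p under 0.05, Cd74, Cd14 and Cd68 were lower in the same fit, against 2.78% of all tested probe sets that were lower at that level, 3.57% that were higher, and 6.36% (605) in either direction. The members were chosen with earlier results of these data known, so these shares do not measure how unusual the members are. The same holds for the gene lists below. An exact test on the 3 pairs of 1 gene cannot give a two-sided p below 0.25.

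Cd74 was measured at 1594.9 in the contralateral and 1594.5 in the ipsilateral muscle of animal 4, at 2041.8 and 1275.7 in animal 5, and at 2075.2 and 1428.3 in animal 6. All 3 ipsilateral values lay below all 3 contralateral ones, but only by 0.4 units at the closest point, since both muscles of animal 4 had the same level. Ipsilateral values below every contralateral one were found for 5.78% of all tested probe sets, and values above every one for 4.74%. Group means were 1904 ± 268 contralaterally and 1433 ± 159 ipsilaterally, and limma's difference was -0.40 (95% interval -0.76 to -0.05, adjusted p = 0.74). The ipsilateral level was 62.5% of the contralateral one in animal 5 and 68.8% in animal 6. Without animal 4 the difference was -0.60 and limma's adjusted p was 0.0494, in a fit with 1 residual degree of freedom in which 0.977% of all probe sets were called lower, 1.55% higher and 2.53% (241) in either direction. Without animal 5 it was -0.27 (adjusted p = 1.0), and without animal 6 it was -0.34 (adjusted p = 0.988).

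Cd14 was measured at 150.1 in the contralateral and 125.9 in the ipsilateral muscle of animal 4, at 109.1 and 68.9 in animal 5, and at 134.1 and 72.5 in animal 6. The ipsilateral value was the lower of the pair in all 3 animals, a pattern shown by 15.1% of all tested probe sets. The groups overlapped, because ipsilateral 4 lay above contralateral 5. Group means were 131 ± 20.7 and 89.1 ± 31.9, a difference of -0.52 (95% interval -0.88 to -0.15, limma's adjusted p = 0.586). By animal it was -0.23, -0.56 and -0.76 in animals 4, 5 and 6. The unpaired difference without the library ipsilateral 4 was -0.755 (adjusted p = 0.0847), and that without contralateral 4 and ipsilateral 6, the libraries with the high actin ratio, was -0.32 (adjusted p = 0.982), both settings chosen after seeing the data.

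Cd68 was measured at 151.1 in the contralateral and 108.9 in the ipsilateral muscle of animal 4, at 102.5 and 94.6 in animal 5, and at 136.4 and 82.4 in animal 6. Again the ipsilateral muscle had the lower value in every animal while the groups overlapped, here because ipsilateral 4 exceeded contralateral 5. Group means were 130 ± 24.9 and 95.3 ± 13.3, a difference of -0.38 (95% interval -0.75 to -0.02, limma's adjusted p = 0.77). The order of the animals was not that of Cd74 or Cd14. Cd68 differed least in animal 5, by -0.10, while animals 4 and 6 gave -0.42 and -0.63. Without contralateral 4 and ipsilateral 6 its unpaired difference was -0.19 (adjusted p = 0.982).

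Aif1 had a pair of probe sets, and neither gave a direction. The brighter one was at 58.3 and 104.7 in the contralateral and ipsilateral muscle of animal 4, at 105.6 and 86.0 in animal 5, and at 80.0 and 80.5 in animal 6. Animal 4 was higher ipsilaterally, animal 5 was lower and animal 6 was level, and the groups overlapped. The dimmer probe set was at 61.4 and 68.9 in animal 4, at 45.6 and 50.6 in animal 5, and at 69.6 and 58.3 in animal 6, so in animals 5 and 6 it took the opposite sign to the brighter one. Their differences were 0.15 (95% interval -0.29 to 0.60) and 0.01 (95% interval -0.36 to 0.39), and limma's adjusted p were 0.92 and 0.991. Without animal 4 both were below 0, at -0.12 and -0.05. Over the 6 libraries the log2 values of the 2 Aif1 probe sets had a Pearson correlation of -0.27. The name of the dimmer one ends in s_at, the array maker's mark for probes that can match more than 1 transcript.

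**Figure D1:**
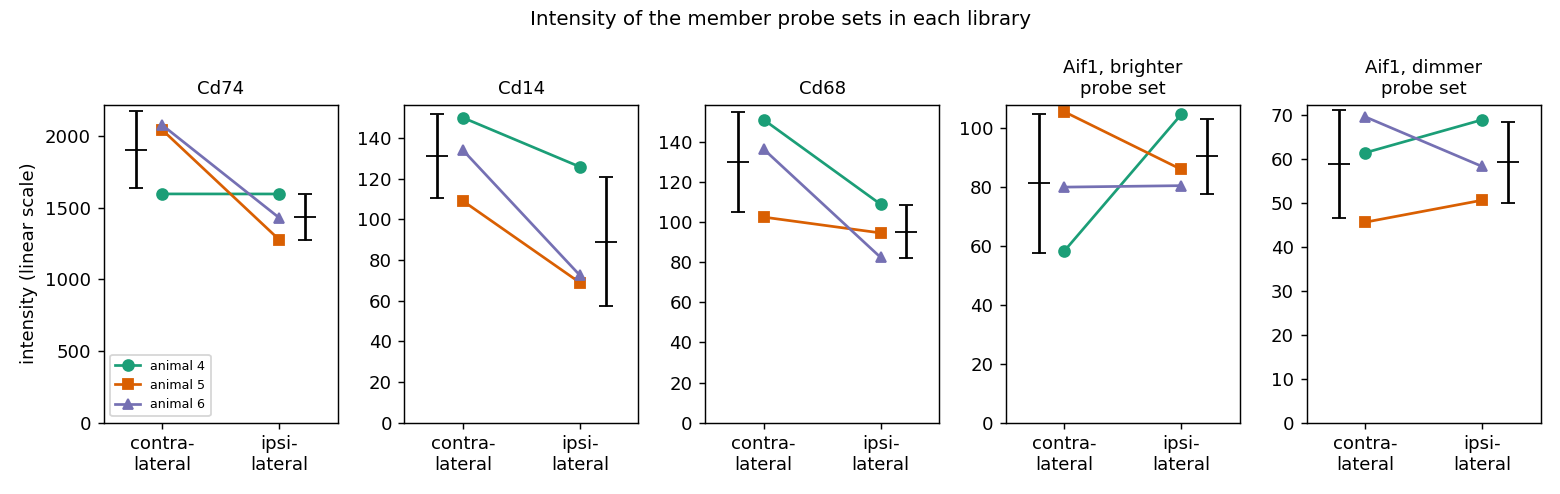
Intensity (linear scale, from 0) of each member probe set in the contralateral and ipsilateral muscle. Coloured points joined by a line are the 2 muscles of 1 animal, and black bars are the group mean ± SD (n = 3). The lines of animals 5 and 6 run downward for Cd74, Cd14 and Cd68, that of animal 4 is level for Cd74, and the lines of both Aif1 probe sets cross.

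**Figure D2:**
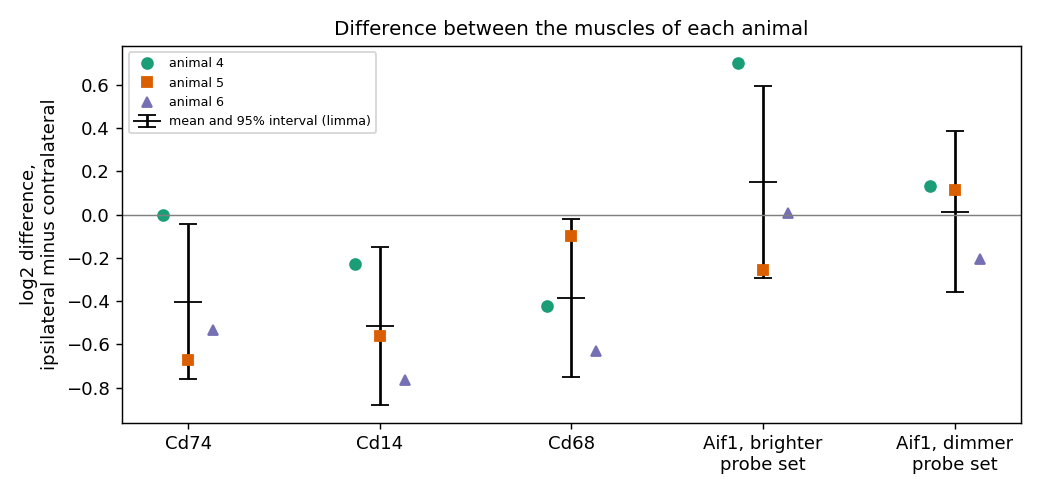
Log2 difference, ipsilateral minus contralateral, of each member probe set. Coloured points are single animals, and black bars are limma's mean with its 95% interval. The intervals of Cd74, Cd14 and Cd68 lie below 0 before adjustment, and those of both Aif1 probe sets span 0.

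The members did not follow 1 common pattern over the 6 libraries. Cd14 and Cd68 were the most alike, with a Pearson correlation of 0.89 between their log2 values, and both were highest in contralateral 4. Cd74 correlated with Cd14 at 0.65 and with Cd68 at 0.47, and was highest in contralateral 6. The brighter Aif1 probe set correlated with Cd74 at 0.21, with Cd14 at -0.25 and with Cd68 at -0.55. These are descriptions over 6 libraries that share 3 animals.

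By the same measure, over the brightest tested probe set of each of 7116 other genes, the transcript most like Cd74 was Psap, the lysosomal precursor of the saposins (r = 0.99). Psap was at 1439.6 and 1359.3 in animal 4, at 1666.3 and 1151.4 in animal 5, and at 1679.7 and 1271.6 in animal 6, contralateral value first. As with Cd74, animal 4 differed least. Next came Cdc42ep4 (0.98) and Lims2 (0.98). Those most like Cd14 were Adi1 (0.997), Stbd1, a glycogen-binding protein (0.99), and Rab6a (0.98). This Rab6a probe set differed by -0.07, -0.46 and -0.44 in animals 4, 5 and 6, but a dimmer one by 0.47, -0.62 and 0.16. The genes most like Cd68 were Ndufc1, a subunit of respiratory complex I (0.98), Stradb (0.97) and Asb12 (0.96). For the brighter Aif1 probe set they were Afap1l1 (0.99), the collagen gene Col1a1 (0.98) and Aamp (0.97). Col1a1 was at 978.7 and 1819.6 in animal 4, at 1718.5 and 1560.4 in animal 5, and at 1401.0 and 1326.6 in animal 6, so that, as for Aif1, contralateral 4 was the lowest library. A dimmer Col1a1 probe set differed by 0.59, 0.22 and -0.135, so the 2 probe sets disagreed in animal 5. Between 6 and 27 genes reached 0.95 with a given member. These genes were picked for their likeness over the same 6 libraries, so a pattern shared with a member follows from that choice.

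Other macrophage and monocyte genes were mostly lower in the ipsilateral muscle of animals 5 and 6 and not in animal 4. Of 42 listed genes, 30 had a probe set and 24 were tested. Of the 24, 0 passed the adjusted threshold, 5 were lower and 0 higher in all 3 animals (background 15.1% and 12.3%), and 2 were lower at an unadjusted p under 0.05 (background 2.78%). The median difference was -0.18, against -0.02 over all tested probe sets. In animal 4 only 10 of the 24 were lower (background 52.9%), whereas 18 were lower in animal 5 (background 53.8%) and 23 in animal 6 (background 48.7%). Medians by animal were 0.06, -0.25 and -0.43. Of the 18 that were lower in both animals 5 and 6, 13 were higher in animal 4. Without animal 6 the list median was -0.03.

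Gpnmb, a glycoprotein of phagocytes that digest debris, had the largest negative difference on that list. Its contralateral intensities in animals 4, 5 and 6 were 248.2, 184.2 and 228.0, and its ipsilateral ones were 171.4, 114.2 and 116.9. The groups did not overlap, as for 5.78% of all tested probe sets with lower ipsilateral values. The difference was -0.67 (SE 0.16), and without animal 4 it was -0.75 (limma's adjusted p = 0.0454). Lgals3, the galactose-binding lectin galectin-3, differed by -0.36 (SE 0.15) and Laptm5, a lysosomal membrane protein of blood cells, by -0.30 (SE 0.15), both lower in all 3 animals. F13a1, the A chain of factor XIII and a gene of tissue-resident macrophages, differed by -0.35 (SE 0.17), with 0.06 in animal 4, and its dimmer probe set by -0.01. The chains of complement C1q, made by macrophages, split by animal in the same way. C1qb was higher by 0.97 in animal 4 but differed by -1.21 and -0.90 in animals 5 and 6, and without animal 4 its difference was -1.06 (limma's adjusted p = 0.0111). Although 18 of the 24 genes were lower in both animals 5 and 6, others were close to level on average. Cd48 differed by 0.09, at -0.57, 0.38 and 0.46 in animals 4, 5 and 6. Fcgr2b differed by 0.04, Ptprc by 0.02, Fcgr3a by 0.003 and Cd53 by -0.003. C1qb and these genes were named after their values were seen. Of the listed genes below the filter, Itgam, the integrin chain CD11b, was at 39.9 or less and the chemokine receptor Ccr2 at 25.6 or less in every library. Among these dim genes Ncf1 was higher in all 3 animals, at 2.7 to 6.2 contralaterally and 13.7 to 19.2 ipsilaterally. Cd86 was lower in all 3, at 42.1 to 47.7 and 23.5 to 38.5. Itgam, Ccr2, Mertk and Cx3cr1 were mixed.

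Genes of the MHC class II pathway, in which CD74 acts, were mostly lower in the ipsilateral muscle of animals 5 and 6. In animal 4 they were of mixed sign, from -0.29 for RT1-DMb to 0.38 for Ifi30. Of 18 listed genes, 14 had a probe set and 11 were tested. None of the 11 passed the adjusted threshold, 5 were lower and 1 was higher in all 3 animals (background 15.1% and 12.3%), and 1 was lower at an unadjusted p under 0.05 (background 2.78%). By animal, 6 of the 11 were lower in animal 4 (background 52.9%), 8 in animal 5 (background 53.8%) and 9 in animal 6 (background 48.7%). The median was -0.28, and within animals 4, 5 and 6 it was -0.02, -0.42 and -0.31. Of the peptide-binding chains, RT1-Db1 was at 362.3 and 422.7 in animal 4, at 520.1 and 316.5 in animal 5, and at 708.6 and 445.3 in animal 6, contralateral value first. It was therefore higher ipsilaterally in animal 4 and lower in the others, a difference of -0.38 (SE 0.20). Without animal 4 it was -0.67 (limma's adjusted p = 0.0435). The dimmer RT1-Db1 probe set was lower in all 3 animals, by -0.31, -0.10 and -0.53, with a difference of -0.31 (SE 0.18), so the 2 probe sets disagreed in animal 4. RT1-Bb was lower in all 3 animals, by -0.32 (SE 0.15). The chain RT1-Da differed by -0.29 (SE 0.16), with 0.02 in animal 4. RT1-Ba differed by 0.03 (SE 0.17), at 0.23, 0.24 and -0.37 in animals 4, 5 and 6. Also on the list, Ifi30 was higher in all 3 animals, by 0.19 (SE 0.16). Rfx5 was higher by 0.30 (SE 0.18), with -0.13 in animal 4. RT1-Da, RT1-Ba, Ifi30 and Rfx5 were named after their values were seen. RT1-DMa, a chain of the peptide exchange factor, differed by -0.39 (SE 0.17). Ciita, the master activator of class II transcription, was at 70.0 and 68.0 in animal 4, at 124.4 and 67.6 in animal 5, and at 75.1 and 55.9 in animal 6, a difference of -0.38 (SE 0.18). Genes of this region belong to families of near-identical copies, so a probe set may also read a relative.

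**Figure D3:**
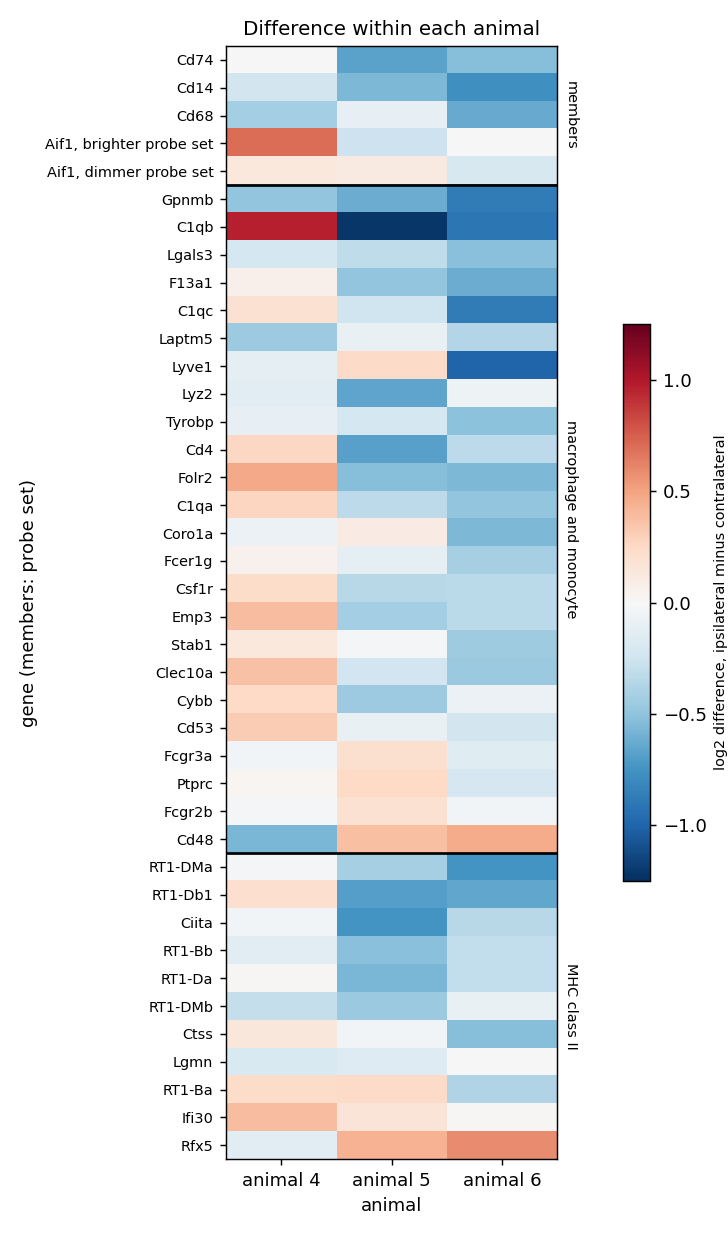
Log2 difference, ipsilateral minus contralateral, within each animal (columns) for the member probe sets, the 24 tested macrophage and monocyte genes and the 11 tested MHC class II genes (rows, ordered by mean difference within a list). Blue is lower and red is higher in the ipsilateral muscle. The column of animal 4 holds red and pale cells in many rows that are blue in animals 5 and 6.

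Genes of MHC class I presentation, which shows peptides of a cell's own proteins, were mixed. Of 18 tested, 0 passed the adjusted threshold, 5 were lower and 2 higher in all 3 animals (background 15.1% and 12.3%), and the median was -0.08. Pdia3, an endoplasmic reticulum chaperone of class I loading, had a difference of 0.63 (SE 0.15), and without animal 4 of 0.68 (limma's adjusted p = 0.0422), but its dimmer probe set gave -0.28, with a value below 0 in every animal. Psme2, a subunit of the proteasome activator, differed by -0.54 (SE 0.16), RT1-CE5 by -0.46 (SE 0.17) and the loading factor Tapbp by -0.38 (SE 0.18), with 0.03 in animal 4. Further RT1-CE5 probe sets, all below the filter, gave 0.18, 0.18, 0.15 and -0.07.

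Genes of the pathway around CD14 differed by -0.29 to 0.26. Of 13 tested genes of lipopolysaccharide sensing and its signalling, 0 passed the adjusted threshold and 0 had an unadjusted p under 0.05, and 5 were lower in all 3 animals (background 15.1%). Their median was -0.06, which moved to -0.18 without animal 4, to -0.0011 without animal 5 and to -0.13 without animal 6. The receptor Tlr4 differed by 0.04, at 59.8 contralaterally and 60.9 ipsilaterally on average. Among the members of the list with the smallest p, the NF-kappa B subunit Rela differed by -0.29 (SE 0.15), the adaptor Ticam1 by 0.26 (SE 0.19), Ly86 by -0.22 (SE 0.16) and the chemokine Ccl2 by -0.19 (SE 0.15). The cytokine genes Tnf and Il1b lay below the filter, at no more than 27.8 and 34.5 in any library.

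Among genes of phagocyte lysosomes, where CD68 resides, 7 of 18 tested were lower and 1 was higher in all 3 animals (background 15.1% and 12.3%), 0 passed the adjusted threshold, and the median was -0.14. Of the 18, 17 were lower in animal 5 (background 53.8%) and 15 in animal 6 (background 48.7%), but 8 in animal 4 (background 52.9%). Psap differed by -0.34 (SE 0.14) and the acid lipase Lipa by -0.32 (SE 0.15). Lamp2, a membrane protein of lysosomes in all cells, was higher by 0.37 (SE 0.16), and its dimmer probe set also by 0.37 (SE 0.22), with -0.08 in animal 4. Most genes of this list are expressed in cells of every kind, muscle fibres included.

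Partners of the other members gave single large values rather than a common direction. Of 9 tested genes of actin bundling and ruffling, the blood cell plastin Lcp1 differed by -0.38 (SE 0.17) and Pls3, the plastin of other tissues, by 0.65 (SE 0.20), with a list median of -0.05. A second Pls3 probe set, below the filter, gave -0.10. Among 8 tested genes that handle haemoglobin, haem and iron, the haem oxygenase Hmox1, which macrophages use after uptake through CD163, was at 85.2 and 75.9 in animal 4, at 89.0 and 59.4 in animal 5, and at 100.2 and 65.3 in animal 6. All of its ipsilateral values lay below its contralateral ones (background 5.78%), and the difference was -0.38 (SE 0.16). Hmox2, the constitutive form, differed by 0.25 (SE 0.15), and the haem transporter Slc48a1 by -0.32 (SE 0.15). The transferrin receptor Tfrc differed by 0.65 (SE 0.21) in its brighter probe set, which was level in animal 4, and by 1.10 (SE 0.27) in its dimmer one, at 0.61 in animal 4. Without animal 4 the brighter one gave 0.97 (limma's adjusted p = 0.0109). Mif, the ligand of CD74, differed by -0.34 (SE 0.21), with 0.26 in animal 4. Its co-receptor Cd44 differed by 0.17 (SE 0.19), and a dimmer probe set by -0.12. Of 11 tested genes of monocyte recruitment, the macrophage growth factor Csf1 differed by -0.62 (SE 0.26), which came mainly from animal 5 at -1.57, and the chemokine Ccl4 by -0.41 (SE 0.19). The median of that list was -0.06. In the fit of all 3 animals 0 genes of these 4 lists passed the adjusted threshold.

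**Figure D4:**
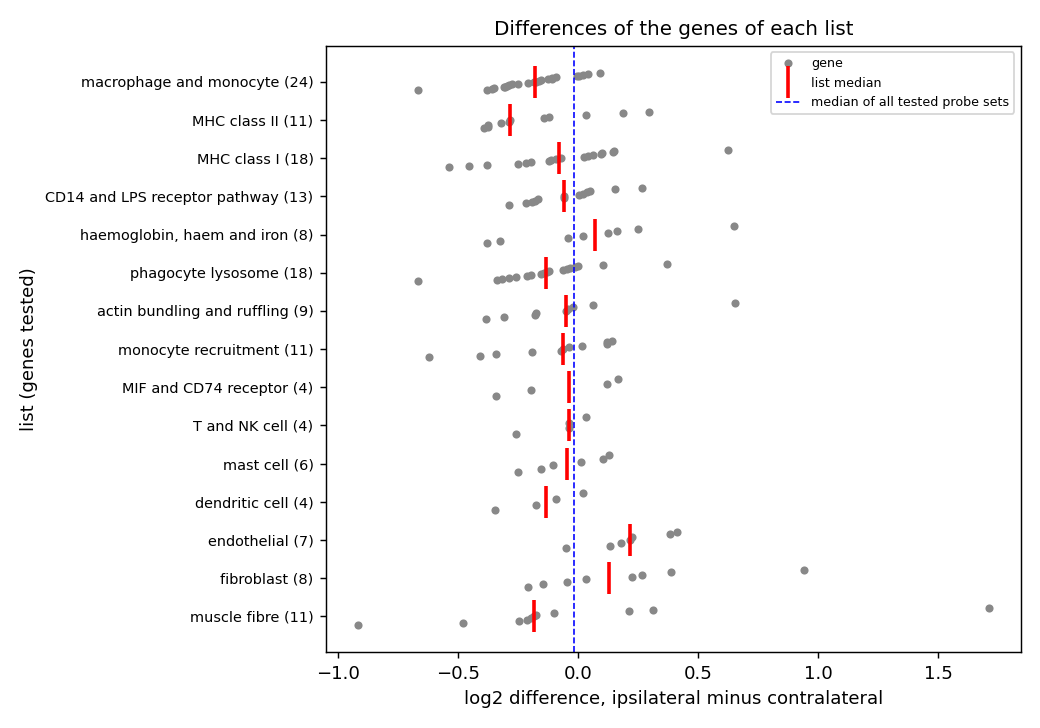
Log2 difference, ipsilateral minus contralateral, of each tested gene (grey points) of the lists with at least 4 tested genes, with the list median (red bar) and the median of all tested probe sets (blue dashed line, -0.02). The medians of the macrophage and MHC class II lists, at -0.18 and -0.28, lie left of that line, and those of the endothelial and fibroblast lists, at 0.21 and 0.13, lie right of it, the fibroblast one at -0.02 without animal 4.

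Markers of other immune cells ranged from below the filter to well above it. All 5 neutrophil markers on the array lay below the filter, with summed intensities of 112 to 132 contralaterally and 101 to 155 ipsilaterally, and S100a8 was at 19.8 or less in every library. Of 14 T and NK cell markers on the array 4 were tested, and their summed intensity was 232 to 250 contralaterally and 206 to 251 ipsilaterally. The defining T cell genes Cd3d and Cd3e were at 11.4 or less and 17.4 or less. The B cell list had only Cd79b on the array, at 25.9 or less. Of 10 mast cell markers 6 were tested, with sums of 728 to 1070 and 719 to 894 and a median difference of -0.04. The mast cell protease Cpa3 averaged 319.5 contralaterally and 268.8 ipsilaterally, against a filter intensity of 42.4, and differed by 0.31, -0.56 and -0.49 in animals 4, 5 and 6. Tpsb2, a mast cell tryptase, averaged 184.2 and 202.4, and the chymase Cma1, named after its values were seen, 218.0 and 195.5. Of 5 dendritic cell markers 4 were tested, with sums of 405 to 475 and 383 to 413 and a median of -0.13. Among these Cd83 averaged 170.9 and 149.3 and Itgae 146.8 and 146.4. No listed marker was at 0. The part of these cells in the differences of the members was not tested.

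Lists for other cells of the tissue gave medians on both sides of 0. The summed intensity of the 24 macrophage and monocyte genes was 5941 to 6241 contralaterally and 4669 to 6244 ipsilaterally. For 7 endothelial genes the sums were 876 to 998 and 1011 to 1351, and the median difference was 0.21. Of these genes 4 were higher in all 3 animals (background 12.3%), while Pecam1, Vwf and Flt1 changed sign between animals. For 8 fibroblast genes they were 9710 to 10980 and 9911 to 10890, with a median of 0.13 that was -0.02 without animal 4 and 0.21 without animal 6. The matrix gene Postn differed by 0.19, 1.28 and 1.35 in animals 4, 5 and 6. The 2 tested adipocyte genes, of 6 on the array, were higher in all 3 animals (background 12.3%), with sums of 995 to 1610 and 1424 to 2316. Their median was 0.65, which moved to 0.05 when the 4 adipocyte genes below the filter were included. Of those 4, Pparg and Lep were lower in all 3 animals, and Plin1 and Lipe were mixed. The 11 muscle fibre genes had sums of 48270 to 54610 and 43870 to 50230 and a median of -0.19, which was -0.03 after quantile normalization, -0.06 without animal 5 and -0.30 without animal 6. Single fibre genes differed far more than that median. Myh7, the slow myosin heavy chain, differed by 1.71 (SE 0.36), at 0.47, 2.99 and 1.67 in animals 4, 5 and 6. Myh4, the fast myosin heavy chain of type IIB fibres, differed by -0.92 (SE 0.19), at -0.30, -1.24 and -1.21. In both genes, named after their values were seen, animal 4 differed least. The 3 erythroid genes, which follow the blood left in the tissue, had sums of 3458 to 3956 and 3086 to 3664, a median of -0.13, and in Hbb, the haemoglobin beta chain, differences of -0.15, -0.12 and -0.12 in animals 4, 5 and 6. In none of these lists did a gene pass the adjusted threshold in the fit of all 3 animals. Without animal 4, where 1 residual degree of freedom was left, 2.53% (241) of all tested probe sets passed it, 1.55% higher and 0.977% lower. The list genes that passed were 2 of 24 macrophage, 1 of 11 class II, 1 of 18 class I and 1 of 8 haem and iron genes. Also passing were 2 of 11 muscle fibre, 1 of 8 fibroblast and 1 of 2 adipocyte genes. These 9 list genes were C1qb, Gpnmb (also on the lysosome list), RT1-Db1, Pdia3 and Tfrc, given above, and 4 of other cells. Of these 4, limma's difference was 2.33 for Myh7 (adjusted p = 0.000626), -1.23 for Myh4 (adjusted p = 0.000972), 1.31 for Postn (adjusted p = 0.00125) and 0.92 for the adipocyte gene Cfd (adjusted p = 0.00968). Each of these adjusted p was lower than that of Cd74 in the same fit. Whether these cells, the fibre genes and blood have a part in the values of Cd74, Cd14 and Cd68 was not tested.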

How the data were processed

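The tibialis anterior of the operated and of the other leg of 3 rats gave 6 arrays. The sample titles gave the group (Cont was read as contralateral) and the animal. The authors deposited linear intensities, a single value for each probe set and array, which have a trimmed mean of 150.05 on all arrays. How they were made is not stated in the labels. After 57 control probe sets were set aside, the platform annotation, possibly outdated, named 12783 probe sets with 1 symbol and 312 with several (left unnamed), and 2771 are not listed in it. A gene table of GRCr8 held 12754 of the genes and changed 0 symbols; only names were taken from it. Promoter sequences are RefSeq's for GRCr8, in which 4 of the 5 genes were matched, not Aif1.

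The pseudocount of 15.8, the 20th percentile of all values, was added before taking log2. Array medians differed by at most 0.117, so no normalization followed. Probe sets whose mean exceeded the 40th percentile (log2 of 5.86, intensity 42.4) were tested in limma 3.58.1 under R 4.3.3, using lmFit and eBayes (trend on), a block for the animal and Benjamini-Hochberg adjustment over all 9519. The fit had 2 residual and 7.47 prior degrees of freedom, and was tested on simulated data. It recovered nearly all planted changes of 2-fold or more when the noise had limma's moderated spreads. With heavier-tailed noise, taken from the spread of each probe set's own 3 differences, most planted 2-fold changes were missed. The absence of calls therefore does not bound differences of that size. Of planted 1.5-fold changes, 39.7% were called with the moderated and 0.0% with the heavier-tailed noise. The fitted differences of Cd74, Cd14 and Cd68, at 1.32, 1.43 and 1.31-fold, were smaller still. The pairing is that of the labels, both muscles being of the same rat; deviations from group means correlated at -0.04, 0.07 and 0.13 within animals 4, 5 and 6. The number of arrays limits the precision.

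The members and lists were chosen with earlier results of these data known. Named genes were the members, the 3 genes most like each member, the 4 with the smallest p on each list, and Ckm, Acta1 and Mb; any others were chosen after their values were seen. Each list gene was represented by its brightest probe set. Alternatives covered the block, pseudocount, normalization, variance prior, filter, choice of probe set and each animal left out; a pair that leaves out libraries was added after seeing the data. Plots were made in matplotlib 3.10.9 (Python 3.11.15).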

Additional observations from a re-analysis of the deposited data

How the results depend on the processing

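Cd74, Cd14 and Cd68 kept a difference below 0 in all 11 alternatives. With each animal left out in turn the difference ran from -0.603 to -0.267 for Cd74, from -0.662 to -0.394 for Cd14 and from -0.526 to -0.26 for Cd68. In the other alternatives it ran from -0.524 to -0.374, from -0.755 to -0.321 and from -0.471 to -0.194. Adjusted p ran from 0.0494 to 1.0, 0.0847 to 1.0 and 0.34 to 1.0. Only Cd74 crossed the threshold, and only without animal 4, where the fit had 1 residual degree of freedom. Without the pairing by animal (no replicate block), the differences stayed at -0.40, -0.52 and -0.38, their adjusted p were 0.823, 0.835 and 0.843, and no call changed. The brighter Aif1 probe set ran from -0.123 to 0.354 and the dimmer one from -0.0459 to 0.123 with each animal left out. The dimmer one was at -0.0767 without ipsilateral 4 and the pairing, an alternative added after the data had been seen. The count of called members ran from 0 to 1, of called list genes from 0 to 9 and of all called probe sets from 0 to 241 with each animal left out, each highest without animal 4. Without ipsilateral 4 and the pairing, 4 list genes and 87 probe sets were called, and without contralateral 4, ipsilateral 6 and the pairing, 1 probe set was called. The cause was not tested. The median of the macrophage list stayed below 0 throughout, from -0.356 to -0.0325, and that of the MHC class II list from -0.363 to -0.188. The median standard error of a difference was 0.16 on the log2 scale. Aif1, at 45.6 to 105.6, lay close to the filter's intensity of 42.4, where the pseudocount shrinks differences most.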
